A study of Mus musculus with 18 samples.

Results

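The aminoacyl-tRNA synthetases examined here are 35 mouse genes, chosen by name from the 24419 symbols of the expression table: every symbol made of 1 capital letter, "ars" and an optional final 2, plus Eprs. The 18 genes without the final 2 encode mostly cytosolic enzymes and are called cytosolic below. The 17 genes with it encode mitochondrial enzymes. The rule reads names only. All 35 genes passed the filter on low expression, which asked for 1 mouse or more with an FPKM of 1 or more.

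The study followed acute myocardial infarction (AMI) in male C57BL/6 mice aged 8 weeks by sequencing polyadenylated RNA from the heart. Per the study's text, the tissue was the left ventricle within the infarct. AMI was induced by tying off the proximal left anterior descending coronary artery, and hearts were taken 10 min, 1 h, 6 h, 24 h or 72 h later. The comparison group is labelled control and was taken to be the group that the study's text calls sham. Each of the 6 groups held 3 mice. All animals were anaesthetised with sodium pentobarbital, and no genetic change was made in any group. Values are FPKM, fragments normalized for transcript length and for the size of the library, and fold changes are differences of log2(FPKM + 1), which understate the change of low genes.

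A synthetase joins 1 amino acid to its tRNA, and the charged tRNA carries that amino acid to the ribosome. Animal cells keep a set of these enzymes for the cytosol and another for the mitochondria, where the ribosomes make a small number of respiratory chain subunits. For most amino acids both sets come from nuclear genes with separate partners, such as Tars for the cytosolic and Tars2 for the mitochondrial threonyl enzyme. Gars and Kars each encode both the cytosolic and the mitochondrial form, and Eprs encodes a fused enzyme for glutamate and proline. Several cytosolic synthetase genes are known targets of ATF4, the transcription factor of the amino acid response, which binds a composite C/EBP-ATF response element.

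Promoter windows of 24 of the 35 genes, running from 250 bases before to 50 after a transcript start, were found in the RefSeq table for GRCm38.p6, the build also known as mm10. The core of the C/EBP-ATF element, TGATGNAA on either strand, occurred in 5 of 10 cytosolic windows and in 0 of 14 mitochondrial windows, against 4.06% of 27025 windows of the same length. The matches are shown because all 5 cytosolic genes that hold them had risen at 24 h. So had 6 of the 8 cytosolic genes with no window. Each line below holds a match in capitals with 10 bases on either side, 5′ to 3′ on the strand of the gene. They lie at chr8:111033841-111033868 for Aars, chr6:55037961-55037988 for Gars, chr13:49682127-49682154 for Iars, chr15:11399656-11399683 for Tars and chr4:129189896-129189923 for Yars, all on the plus strand but for Tars on the minus strand.
Aars: gcgggtcactTTTCATCAgagcgctctg
Gars: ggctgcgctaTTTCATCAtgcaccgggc
Iars: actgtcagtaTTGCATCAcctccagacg
Tars: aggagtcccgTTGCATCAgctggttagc
Yars: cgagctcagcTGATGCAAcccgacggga

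A match says only that these letters lie in the window. Genes with no entry in the promoter table included Cars, Hars, Hars2, Lars, Mars, Nars, Pars2, Rars, Vars and Wars.

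Members of both sets were expressed in control hearts. On the FPKM scale, which is per length, the highest cytosolic levels were those of Dars with 47.5 ± 2.2 (SD, n = 3) and Kars with 46.7 ± 1.11, whose ranges overlapped, and the lowest was Cars with 6.32 ± 0.667. Among the mitochondrial enzymes Fars2 stood highest with 36 ± 2.82, and Pars2 lowest with 1.35 ± 0.334. Of the neighbours in the order of levels, 9 of 17 cytosolic and 7 of 16 mitochondrial pairs had overlapping ranges over the 3 mice.

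The summed FPKM of the cytosolic genes was higher, and that of the mitochondrial genes lower, from 6 h on. In the control mice the cytosolic sum was 339, 336 and 343, and the mitochondrial sum was 238, 242 and 256. At 24 h the cytosolic sum was 426, 436 and 510, and the mitochondrial sum was 209, 199 and 169. At 72 h the cytosolic sum was 391, 455 and 406, and the mitochondrial sum was 163, 159 and 156. At both times every AMI mouse lay above every control mouse in the cytosolic sum and below every control mouse in the mitochondrial sum. These sums are of the deposited FPKM and were not rescaled. After either rescaling described below, 9 of 18 cytosolic genes had a positive log2 fold change at 72 h, with medians of 0.08 and 0.03. The place of the cytosolic sum at 72 h thus depends on the scaling. The ratio of the cytosolic to the mitochondrial sum was 1.38 ± 0.0406 in control and changed little early on, with 1.33 ± 0.0346 after 10 min and 1.38 ± 0.0133 after 1 h (mean ± SD, n = 3 mice each). It then stood at 1.76 ± 0.188 by 6 h, 2.41 ± 0.522 by 24 h and 2.62 ± 0.233 by 72 h. The third 24 h mouse was the most extreme, and without it the mean sums at 24 h were 431 and 204 in place of 457 and 192. The same mouse had the lowest cardiomyocyte and the highest neutrophil and macrophage marker sums of its group, given next.

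**Figure D1:**
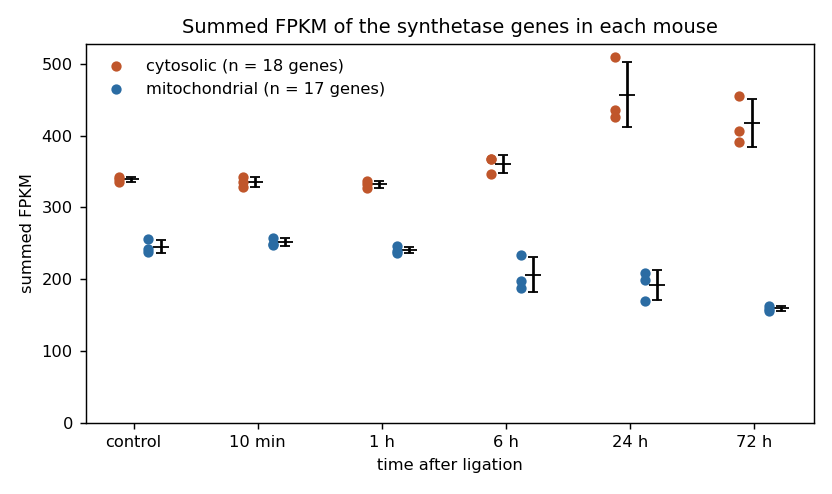
Summed FPKM of the 18 cytosolic and 17 mitochondrial synthetase genes (vertical axis) in each mouse (points) by group (horizontal axis), with black bars for the mean ± SD of 3 mice. The cytosolic sums lie at 426 or above at 24 h and the mitochondrial sums at 163 or below at 72 h. Values are as deposited, without rescaling.

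Some facts of the whole table bear on these values. The sum of all FPKM ranged from 542418 to 600467 among the 18 mice, and relative sequencing depth, read from the lowest values, from 0.815 to 1.32. Over all genes tested, the log2 fold change against control had a median of 0.13 for 24 h and 0.29 for 72 h. It became 0.01 and 0.03 after median-of-ratios scaling, and -0.06 and -0.12 after quantile normalization, so directions below are given with these shifts. The summed FPKM of 9 cardiomyocyte markers lay between 67500 and 71500 in control, between 41400 and 53300 at 24 h and between 22800 and 29600 at 72 h, and 6 of 9 were lower at 24 h and 9 of 9 at 72 h. All 7 fibroblast and all 7 macrophage and monocyte markers were higher at 72 h, with sums between 3810 and 4930 and between 3440 and 4550, where the control mice had at most 288 and 217. The 7 macrophage and monocyte markers were also all higher at 24 h, with sums of 499, 536 and 804, the last in the third mouse. Neutrophil markers summed to between 116 and 997 at 6 h, against at most 4.99 in control. At 24 h 4 of 5 neutrophil markers were higher, with sums of 209, 42.6 and 965, and the third mouse also had the cardiomyocyte sum of 41400. Of 5 endothelial markers 3 were lower at 72 h. The 5 T cell markers stayed at a summed FPKM of 4.39 or less, and no marker of these lists was at 0 in all mice. The part of this change of cell types in the results below was not tested, and in bulk tissue fewer cells of a type and less RNA per cell cannot be told apart.

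The first comparisons asked whether the synthetases had changed within the first hour. No member passed the test at 10 min or at 1 h (limma, adjusted p under 0.05), against 0.346% and 0.722% of all genes called. By an unadjusted p under 0.05, 1 of 35 members stood out at 10 min and 2 of 35 at 1 h, where 14.7% and 12.6% of all genes did. The member log2 fold changes ran from -0.17 to 0.24 at 10 min and from -0.22 to 0.09 at 1 h.

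At 6 h few members had passed the test, and they fell into opposite directions by class. Among the 18 cytosolic genes 1, Vars, was higher and 0 were lower, where 11.6% of all genes were higher and 16.8% lower. Among the 17 mitochondrial genes 3 were lower, Rars2, Nars2 and Tars2, and 0 were higher. These shares, 5.56% and 17.6%, lie under or near the background. By an unadjusted p under 0.05, 6 cytosolic and 7 mitochondrial members stood out, against 42.6% of all genes. The medians at 6 h were 0.14 for the cytosolic and -0.22 for the mitochondrial genes, with -0.08 for all genes.

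Vars encodes the valyl enzyme. Its FPKM was 7.7, 7.11 and 7.55 in the control mice and 11, 11.1 and 8.89 at 6 h. All 3 mice at 6 h lay above the control mice, with a log2 fold change of 0.41 ± 0.11 (SE) and an adjusted p of 0.027 (limma).

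Rars2, the mitochondrial arginyl enzyme, had an FPKM of 4.26, 3.8 and 4.27 in control and 2.58, 2.82 and 3.1 at 6 h, a log2 fold change of -0.42 ± 0.1 (SE; limma adjusted p = 0.0217). Nars2, the mitochondrial asparaginyl enzyme, went from 12.5, 13.2 and 13.3 to 10, 9.29 and 11.2, a log2 fold change of -0.33 ± 0.09 (adjusted p = 0.0365). Tars2 went from 16.7, 16 and 15.7 to 12.1, 13.5 and 13.9, a log2 fold change of -0.27 ± 0.09 (adjusted p = 0.0495). In each of these genes every 6 h mouse lay below every control mouse. Leaving out single mice ended the call of Vars, Nars2 and Tars2 in 5 of 6 cases each and that of Rars2 in 3 of 6.

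By 24 h most of the cytosolic genes had risen. All 18 cytosolic genes had a positive log2 fold change and in 17 of them every 24 h mouse lay above every control mouse, where 39.3% of all genes did so. The test called 12 of 18 higher and 0 lower, that is 66.7% against 26.2% of all genes higher and 11.4% lower. Their median was 0.56, against 0.13 over all genes, and it stood 0.4 to 0.43 above the median of all genes under each of the 3 scalings, while Kars and Qars turned negative under median-of-ratios scaling and quantile normalization and Dars under the former. The mitochondrial set was mixed, with 1 gene higher, 5 lower and 11 not called, and a median of -0.18.

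The genes that rose most by 24 h were Vars, Tars and Rars, the valyl, threonyl and arginyl enzymes. Vars reached an FPKM of 10.7, 14.1 and 17.4 at 24 h, from 7.11 to 7.7 in control, a log2 fold change of 0.81 ± 0.16 (SE; limma adjusted p = 0.0127). Tars was at 11.3, 10.8 and 11 in control and at 16.7, 17.3 and 25.9 at 24 h, a log2 fold change of 0.77 ± 0.16 (adjusted p = 0.0141). Rars was at 7.7, 7.3 and 8.21 in control and at 12.5, 13.4 and 15.2 at 24 h, a log2 fold change of 0.75 ± 0.1 (adjusted p = 0.00492). The groups did not overlap in any of these genes, and in all of them the third 24 h mouse was the highest.

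Hars, the histidyl enzyme, came next, and its 24 h mice lay close together at 21.8, 25.5 and 26.1, against 13.9, 14.1 and 14.7 in control (log2 fold change 0.74 ± 0.1 SE, limma adjusted p = 0.0044). The other cytosolic genes called at 24 h were Aars, Cars, Gars, Iars, Lars, Nars, Sars and Yars, with log2 fold changes from 0.32 to 0.7. Dars, Eprs, Kars, Mars, Qars and Wars were not called, with log2 fold changes from 0.08 to 0.23. Without the third 24 h mouse 12 cytosolic genes were called. Leaving out a control mouse left fewer, 4 without the first or the second control mouse and 5 without the third. Over all genes the calls higher went from 3496 to 1262, 1319 and 1646 in these fits. Gars, Hars and Rars stayed past the threshold in all 6 fits that left out a mouse.

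Among the deepest falls at 24 h were those of the mitochondrial phenylalanyl and cysteinyl enzymes. Fars2 went from 34, 34.7 and 39.2 to 25.4, 21.4 and 19.6, a log2 fold change of -0.68 ± 0.12 (SE; limma adjusted p = 0.0076). Cars2 went from 24.7, 23.7 and 24.1 to 19.2, 16.6 and 14.3, a log2 fold change of -0.52 ± 0.11 (adjusted p = 0.0157). The groups overlapped in neither gene. Fars2 kept its call with each mouse left out, and Cars2 lost it without any 1 of the control mice, with an adjusted p from 0.0587 to 0.0675 in the limma fit.

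Lars2 and Vars2, the mitochondrial leucyl and valyl enzymes, were also called lower, with log2 fold changes of -0.43 and -0.3. Leaving out single mice ended the call of Lars2 in 4 of 6 cases and that of Vars2 in 6 of 6. Ears2, the mitochondrial glutamyl enzyme, was the 1 mitochondrial member called higher at 24 h. Its FPKM was 2.37, 2.29 and 2.27 in control, and 1.71, 1.92 and 1.75 after 6 h. It was 3.04, 3.68 and 2.97 after 24 h, and then 1.61, 1.6 and 1.6 in the 72 h mice. All 24 h mice lay above and all 72 h mice below the control mice, with log2 fold changes of 0.35 ± 0.11 (SE; limma adjusted p = 0.038) and -0.35 ± 0.08 (adjusted p = 0.00272). The rise lost its call under both other scalings, with a limma adjusted p of 0.107 and 0.346, and in 4 of 6 fits that left out a mouse. The fall kept its call in all of these.

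**Figure D2:**
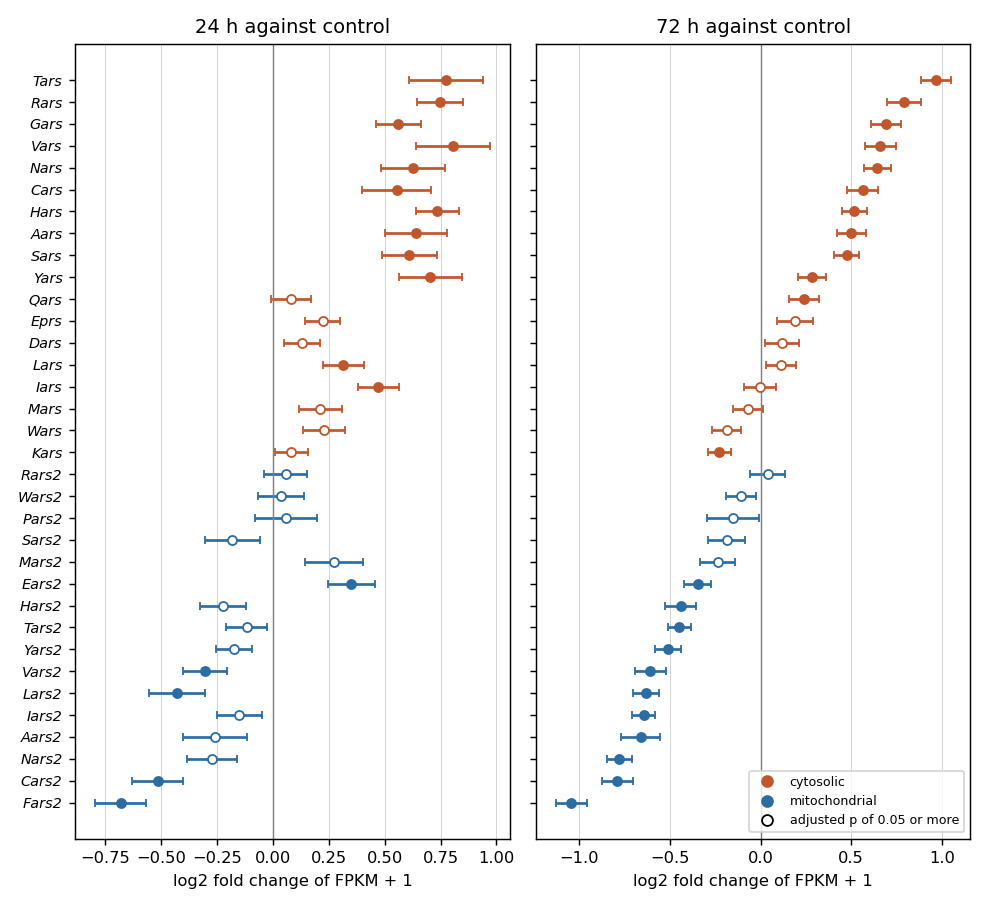
Log2 fold change of FPKM + 1 against control (horizontal axis) for 34 of the synthetase genes (vertical axis, ordered by class and by the value at 72 h) at 24 h and 72 h, with bars for 1 SE. Filled points passed an adjusted p of 0.05, which holds for 12 cytosolic genes on the positive side at 24 h and for 11 of the mitochondrial genes shown on the negative side at 72 h.

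At 72 h most of the mitochondrial genes had fallen. The test called 12 of 17 lower and 0 higher, 70.6% against 24.2% of all genes, with a median of -0.45 where all genes had 0.29. All 17 members lay below the median of all genes under each of the 3 scalings, and their median stood 0.74 to 0.77 below it. Mars2, Pars2, Rars2, Sars2 and Wars2 were not called, with log2 fold changes from -0.24 to 0.04.

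The deepest fall was that of Fars2, which charges phenylalanine in mitochondria. Its FPKM at 72 h was 18.8, 16 and 16.1, less than in any control mouse, which gave a log2 fold change of -1.04 ± 0.09 (SE; limma adjusted p = 7.87e-06). Cars2 stood at 14.7, 11.9 and 14.2 at 72 h, a log2 fold change of -0.79 ± 0.08 (adjusted p = 3.59e-05). Nars2 stood at 7.18, 7.45 and 6.86, a log2 fold change of -0.78 ± 0.07 (adjusted p = 1.04e-05). In both genes the AMI mice lay below all control mice.

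The mitochondrial alanyl and isoleucyl enzymes followed. Aars2 was at 17.9, 16.5 and 19.7 in control and 12.8, 10.7 and 9.71 at 72 h, a log2 fold change of -0.66 ± 0.11 (SE; limma adjusted p = 0.000442). Iars2 was at 25.9, 27 and 25.7 in control and 16.4, 17.2 and 15.6 at 72 h, a log2 fold change of -0.65 ± 0.06 (adjusted p = 2.37e-05). The groups were apart in both. Iars2 shares 2034 exon bases, part of the 24.2% of its exons that overlap another gene, with Rab3gap2 on the opposite strand, whose mean FPKM went from 11.5 to 20.8. Fars2 shares 501 exon bases with Nrn1 and 115 with Lyrm4, both on the opposite strand. The mean FPKM of Nrn1 was 4.23 in control, 2.32 at 24 h and 1.98 at 72 h, and that of Lyrm4 was 5.69, 7.14 and 4.52. Among genes that rose, Aars shares 1326 exon bases, part of the 15.1% of its exons that overlap another gene, with Exosc6 on the same strand, whose mean FPKM went from 8.69 in control to 19.6 at 24 h and 22.1 at 72 h. Ears2 shares 89 with Ubfd1 on the opposite strand, whose mean FPKM was 17.2 in control and 27.2 at 24 h. The strand setting used in counting was not given in the sources used here, so reads of overlapping genes cannot be told apart.

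The cytosolic set was split at 72 h. The test called 11 genes higher and 1, Kars, lower, and the 61.1% higher is near the 53.1% of all genes. The cytosolic median of 0.38 was 0.09 above that of all genes, with 9 members above and 9 below the latter. After median-of-ratios scaling 9 of 18 log2 fold changes were positive, and after quantile normalization also 9, with Dars, Eprs, Lars, Qars and Yars turning negative under both.

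Tars rose most, to an FPKM of 20.4, 25.1 and 22.3 at 72 h, with a log2 fold change of 0.97 ± 0.08 (SE; limma adjusted p = 9.26e-06). Rars stood at 12.8, 15.9 and 13.8, a log2 fold change of 0.79 ± 0.09 (adjusted p = 5.83e-05). Vars stood at 11.5, 13.7 and 11.9, a log2 fold change of 0.66 ± 0.08 (adjusted p = 9.6e-05). All of these values lay above the control mice, and the rises stayed positive under the other scalings, at 0.64, 0.4 and 0.26 with quantile normalization.

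Gars and Nars, the glycyl and asparaginyl enzymes, had risen as well. Gars was at 21, 20.3 and 19.7 in control and 30.3, 37.4 and 33 at 72 h, a log2 fold change of 0.69 ± 0.08 (SE; limma adjusted p = 7.74e-05). Nars was at 29.2, 31.1 and 31.4 in control and 45, 52.5 and 47.8 at 72 h, a log2 fold change of 0.64 ± 0.07 (adjusted p = 5.45e-05). The groups were apart in both genes. Aars, Cars, Hars, Qars, Sars and Yars were the other cytosolic genes called higher, with log2 fold changes from 0.24 to 0.56, and of the 11 rises only that of Qars was lost when single mice were left out, in 3 of 6 cases. With quantile normalization Aars, Cars and Sars lost their calls (limma adjusted p = 0.0788, 0.21 and 0.0716), and Qars and Yars turned negative under both other scalings.

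Kars, which encodes both lysyl forms, was the exception, with an FPKM of 47.8, 46.9 and 45.5 in control and 39.5, 42 and 37.8 at 72 h. Every 72 h mouse lay below every control mouse (log2 fold change -0.23 ± 0.06 SE, limma adjusted p = 0.00994). Gars, the other gene with both forms, moved the opposite way. Dars, Eprs, Iars, Lars, Mars and Wars were not called at 72 h, with log2 fold changes from -0.19 to 0.19.

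**Figure D3:**
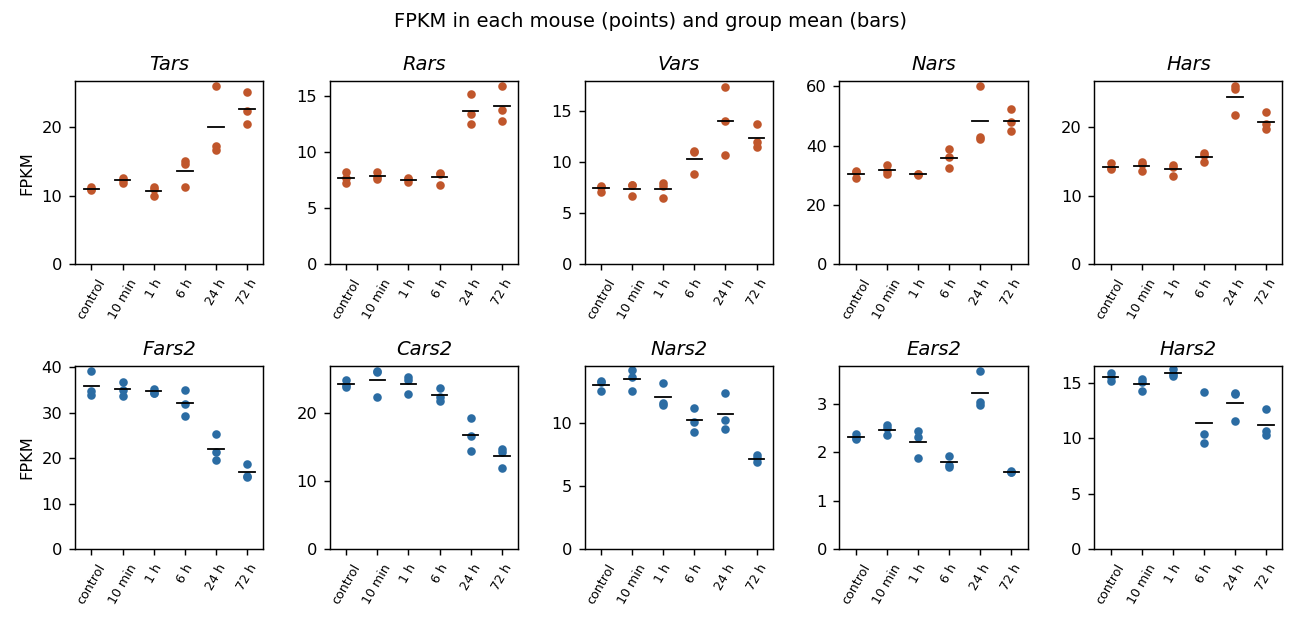
FPKM (vertical axes, each from 0) of 5 cytosolic genes (upper row) and 5 mitochondrial genes (lower row) in each mouse by group, with bars for group means. Tars and Rars stay high from 24 h to 72 h, and Fars2 and Cars2 lie below control at 24 h and at 72 h. Ears2 is above control at 24 h and below it at 72 h.

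The time points after ligation were also compared with each other, and these comparisons share mice with those above. From 6 h to 24 h 2 cytosolic genes were called higher, Hars and Rars, together with 2 mitochondrial genes, Ears2 and Rars2, and 1 mitochondrial gene, Fars2, was lower, where 12.5% of all genes were higher and 1.94% lower. Rars had an FPKM of 8.12, 7.12 and 8.08 at 6 h, which overlapped with the 7.7, 7.3 and 8.21 of control. Its log2 fold change was 0.01 for 6 h against control and 0.74 ± 0.13 (SE; limma adjusted p = 0.0193) for 24 h against 6 h. Rars2 returned from 2.58 to 3.1 at 6 h to 4.56, 4.14 and 4.23 at 24 h, which overlapped with the control mice.

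From 24 h to 72 h no member was called higher, against 29.7% of all genes, and 4 cytosolic and 6 mitochondrial genes were lower, against 13.5%. By an unadjusted p under 0.05, 5 cytosolic and 9 mitochondrial members stood out, against 51.6% of all genes. The cytosolic genes were Iars, Kars, Wars and Yars. Without the first or the third 72 h mouse 0 cytosolic genes were called lower, and without the second 2 were. Tars, Rars and Nars had log2 fold changes of 0.19, 0.04 and 0.02, which did not pass the test. Iars, the isoleucyl enzyme, was at 24.8, 22.9 and 27.4 at 24 h and at 17, 20.2 and 16.1 at 72 h, with 18.4, 17.8 and 16.9 in control, so that its 72 h mice overlapped with control. The mitochondrial genes were Ears2, Iars2, Mars2, Nars2, Tars2 and Yars2. For Ears2 the log2 fold change was -0.7 ± 0.11 (SE; limma adjusted p = 0.00229).

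Since scaling largely cancels within a mouse, the partners for the same amino acid were also compared as a ratio. Both a cytosolic and a mitochondrial gene were in the set for 14 amino acids. In 12 of these pairs the log2 ratio of cytosolic to mitochondrial FPKM + 1 was higher in every 72 h mouse than in every control mouse. Groups apart were common at 72 h: of 13329 single genes tested, 7348 lay above and 3392 below control in every mouse. The pairs are made of the members described above, so their count is not a separate result. The median difference over the 14 pairs was 0.77 at 72 h, 0.85 at 24 h and 0.38 at 6 h. With 3 mice against 3, an exact two-sided permutation test cannot give a p under 0.1, and these 12 pairs all had that p, or 0.117 after Benjamini-Hochberg adjustment over the 14 pairs.

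The asparagine pair, Nars and Nars2, changed most, with a mean log2 ratio of 1.17 ± 0.013 (SD, n = 3) in control and ratios of 2.49, 2.66 and 2.63 at 72 h. The threonine pair, Tars and Tars2, went from -0.52, -0.52 and -0.48 to 0.76, 1.06 and 0.9, so that the cytosolic gene passed from the lower to the higher of the pair. The cysteine pair, Cars and Cars2, went from -1.67, -1.79 and -1.89 to -0.55, -0.31 and -0.43, and Cars2 stayed the higher of the pair. None of these groups overlapped.

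The exceptions were methionine and tryptophan. Mars and Mars2 had log2 ratios of 1.84, 1.5 and 1.5 in control and 1.73, 1.88 and 1.74 at 72 h (exact permutation p = 0.3). Wars and Wars2 had 3.01, 2.98 and 3.17 in control and 2.77, 3.15 and 3 at 72 h (exact permutation p = 0.6). The groups overlapped in both pairs.

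**Figure D4:**
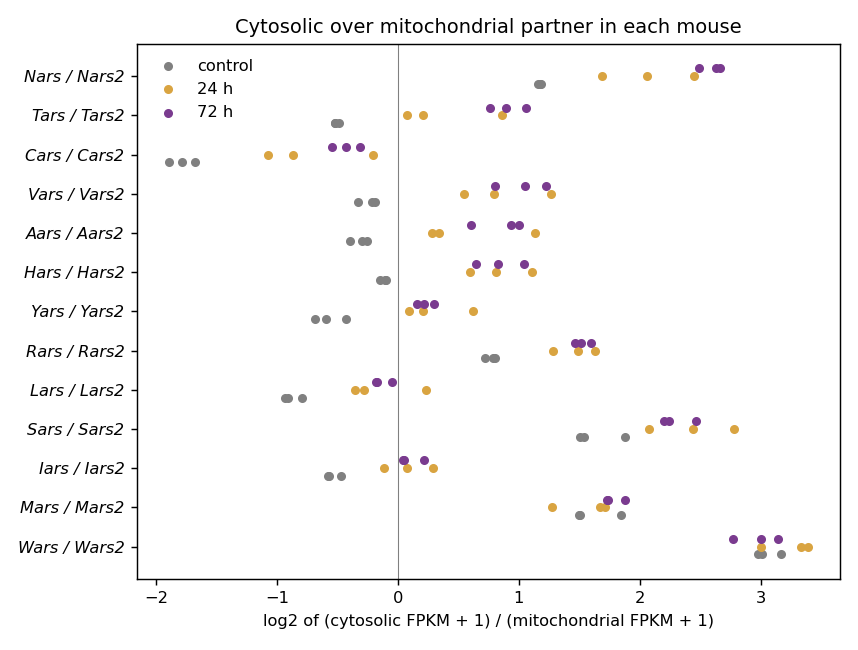
Log2 ratio of cytosolic to mitochondrial FPKM + 1 (horizontal axis) for 13 of the pairs of genes that serve the same amino acid (vertical axis), with 1 point per mouse in control, at 24 h and at 72 h. In 11 of the pairs shown all 72 h points lie to the right of all control points, and the methionine and tryptophan pairs at the bottom overlap.

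The histidine pair holds a feature of position. Hars and Hars2 lie head to head on chromosome 18 in GENCODE M21 on mm10, Hars from 36766528 to 36783205 on the minus strand and Hars2 from 36783008 to 36792562 on the plus strand, and their annotated starts overlap by 197 bases, with 195 exon bases shared. Hars2 was at an FPKM of 15.6, 15.2 and 15.9 in control, 14, 14.1 and 11.5 by 24 h, and 10.7, 10.3 and 12.7 in the 72 h mice. Mean FPKM at 72 h was 46.2% above control for Hars and fell by 27.7% for Hars2, both called (limma adjusted p = 0.000144 and 0.0014). The neighbours thus moved in opposite directions from adjoining starts.

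The cytosolic genes can also be grouped by the form their enzymes take. Dars, Eprs, Iars, Kars, Lars, Mars, Qars and Rars encode the catalytic members of the multisynthetase complex, a large assembly held together by scaffold proteins. This grouping was made after the values had been seen and is a description, with no test of the difference. Of these 8 genes 3 were called higher at 24 h, Iars, Lars and Rars, with a median of 0.22. Of the 10 genes outside the complex 9 were higher at 24 h, all but Wars, with a median of 0.63, where 26.2% of all genes were higher and their median was 0.13. The log2 fold changes at 24 h ran from 0.08 to 0.75 inside the complex and from 0.23 to 0.81 outside it, so that the ranges overlapped. At 72 h 2 of 8 inside the complex were higher and 1 lower, against 9 of 10 higher outside it, with medians of 0.11 and 0.54, where 53.1% of all genes were higher, 24.2% were lower and the median was 0.29.

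Of the scaffold proteins, Eef1e1 had a mean FPKM of 15.3 ± 1.71 in control, 21.7 ± 3.08 by 6 h, 38.8 ± 3.19 by 24 h and 28.9 ± 2.55 by 72 h (SD, n = 3), and was called at the last 3 times (limma adjusted p = 0.033, 0.0015 and 4.5e-05). Aimp2 was called higher at 24 h, at 11.2 ± 0.927 against 7.55 ± 0.0758 in control (adjusted p = 0.0093), and its 72 h level was 6.9 ± 0.234 (adjusted p = 0.15). Aimp1 was at 34.7 ± 0.655 in control and 37.2 ± 3.83 at 24 h and was not called at any time.

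A second grouping, also made with the values known, used the element matches shown above. All 5 cytosolic genes with a match were higher at 24 h, with a median log2 fold change of 0.64 and a range from 0.47 to 0.77. Of the 5 cytosolic genes with a promoter window and no match, Sars alone was higher, and Dars, Eprs, Kars and Qars were not called, with a median of 0.13 over the 5. Of the 8 cytosolic genes with no promoter entry, whose matches are unknown, 6 were higher, with a median of 0.59. Of all genes 26.2% were higher at 24 h. At 72 h 4 of 5 with a match were higher, all but Iars, and 2 of 5 without a match were, where 53.1% of all genes were, so that neither count stands far from the background. The grouping overlaps with the previous one, since 4 of the genes without a match belong to the complex and only Iars of those with a match does. Another element, the core bound by the respiratory gene regulator NRF1 and written as GCGC, any 2 bases and GCGC, was in 2 of 10 cytosolic windows, those of Kars and Tars, and in 2 of 14 mitochondrial windows, those of Iars2 and Mars2, against 6.43% of all windows.

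**Figure D5:**
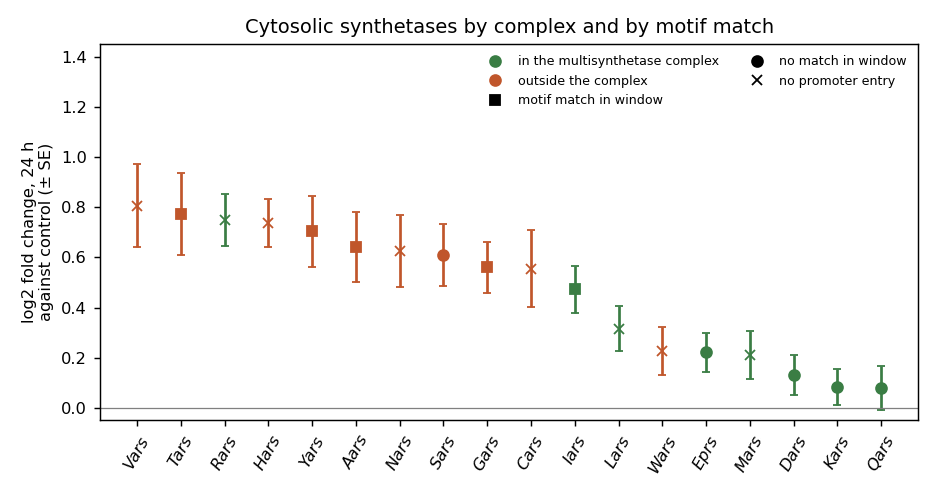
Log2 fold change of FPKM + 1 at 24 h against control with 1 SE (vertical axis) for the 18 cytosolic genes in descending order. Colour marks membership of the multisynthetase complex and the symbol marks whether the promoter window held the C/EBP-ATF core; the 5 genes with a match lie between 0.47 and 0.77.

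Other genes of the amino acid response were counted beside the synthetases. Of 26 such genes tested, 15 had risen and 1 had fallen by 6 h, 17 and 0 by 24 h, and 19 and 2 by 72 h, with medians of 0.61, 0.74 and 0.81. The shares of all genes higher rose over the same times, from 11.6% to 26.2% and 53.1%, and the medians of all genes were -0.08, 0.13 and 0.29. At 72 h after quantile normalization 16 were higher and 5 lower. The largest log2 fold changes at 72 h were those of Atf3 (2.9), Gdf15 (2.82), Psat1 (2.15) and Nupr1 (1.89): a stress-induced transcription factor, a secreted stress cytokine, an enzyme of serine synthesis and a small stress-induced chromatin protein. Ddit3 and Chac1 of the same list went the other way. Their mean FPKM was 23.1 and 3.1 in control and 16.5 and 1.61 at 72 h. At 6 h, where 1 of 18 cytosolic synthetases was called, Atf3 had 4.34 and Gdf15 2.13. The mean FPKM of Atf4, chosen for its role, was 50.5 ± 4.6 in control, 110 ± 25.8 by 6 h, 118 ± 43.2 by 24 h and 88 ± 6.29 by 72 h.

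Wars, the tryptophanyl enzyme, is also known as a gene induced by interferon gamma. Its FPKM was 31.2, 29.7 and 34.5 in control, 34.6, 37.3 and 40.2 by 24 h, and 25.9, 29.8 and 27.7 in the 72 h mice. It was not called against control at either time (limma adjusted p = 0.0959 and 0.06), and 72 h was lower than 24 h (log2 fold change -0.41 ± 0.1 SE, adjusted p = 0.0157). Of 9 other interferon gamma response genes tested, 8 were higher at 72 h and 0 lower, led by Cxcl10 with 3.36, where 53.1% of all genes were higher. At 24 h 1 was higher and 3 were lower, where 26.2% of all genes were higher and 11.4% lower.

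The rest of the translation apparatus was counted in the same way. All 9 mitochondrial translation factors were lower at 72 h, where 24.2% of all genes were. Their median was -0.44, and they were lower under the other scalings too. Tufm, the mitochondrial elongation factor Tu, went from 41.8 ± 1.73 to 17.1 ± 2.16 FPKM (log2 fold change -1.25), and Gfm1, elongation factor G1, had -0.99. Of 77 mitochondrial ribosomal protein genes 62 were lower and 2 higher, with a median of -0.57, and 74 were lower with either other scaling. The mitochondrial synthetases had 12 of 17 lower and a median of -0.45 in the same comparison.

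On the cytosolic side, 73 of 78 ribosomal protein genes tested were higher and 1 lower at 72 h, with a median of 0.88 where the cytosolic synthetases had 0.38. At 24 h 66 were higher and 1 lower, with a median of 0.5 against 0.56 for the synthetases. Of all genes 53.1% were higher at 72 h and 26.2% at 24 h. Median-of-ratios scaling left 60 ribosomal protein genes higher at 72 h and 39 at 24 h. Of 6 elongation factors 4 were higher and 1 lower at 72 h, so that neither count stands far from the share of all genes, 53.1% and 24.2%. Eef1a1 went from 516 ± 21.1 to 2340 ± 196 FPKM, while Eef1a2, the form of muscle and neurons, fell from 833 ± 49.1 to 300 ± 60.7.

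Of the cytosolic synthetase genes whose names lie outside the rule, Farsa, a subunit of the phenylalanyl enzyme, was higher at 72 h with 0.38 on the log2 scale, Farsb, the other subunit, had 0.01, and Tarsl2, a second threonyl enzyme, was lower with -1.07. Tarsl2 went from 16.7 ± 1.23 to 7.43 ± 0.764 FPKM while Tars rose from 11 ± 0.23 to 22.6 ± 2.37. After either other scaling Farsa was not called and 2 of these 3 genes were lower. Among 6 partners of mitochondrial charging, Gatb and Qrsl1, subunits of the amidotransferase that makes mitochondrial glutaminyl-tRNA, were lower at 72 h with -1.09 and -0.9. Of 4 trans-editing factors, which clear wrongly charged tRNA, Aarsd1 and Dtd1 were lower with -0.84 and -0.74, and Dtd2 and Prorsd1 were higher with 0.27 and 0.24, but neither was called after median-of-ratios scaling and both were called lower after quantile normalization, as were all 4.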

How the data were processed

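Per the labels and the paper's methods, read trimming used cutadapt 1.18, mapping to mm10 used HISAT2 2.1.0, and the authors estimated FPKM with StringTie 1.3.4d; the deposited FPKM of each mouse were used here without rescaling. The table gives no counts, so precision comes from the 3 mice of a group. Titles gave the groups, and all 18 value columns were mapped, 4 of them (the 1 h mice and the second 6 h mouse) by inference, since 1 character of the column name differed from the title. Tests covered the 13333 symbols that reached an FPKM of 1 in 1 mouse or more. Each comparison was fitted on its own 6 mice as log2(FPKM + 1) with limma 3.58.1 in R 4.3.3 (variance trend, two-sided, Benjamini-Hochberg over all genes), a step tested on simulated data. The paper reports male mice that were divided at random into groups, and p-values measure the spread between these mice. Pairs were tested by exact permutation. Values per mouse are given for the 5 members of each class with the largest change at 72 h and the 3 largest rises and falls called at 6 h and 24 h. Other members named were picked with their values known. The members and gene lists were chosen with earlier results of these data known. Positions come from GENCODE M21 and promoter sequence from RefSeq on GRCm38.p6. Alternatives were each mouse left out, a replicate block, a single fit over all 18 mice, quantile normalization, median-of-ratios scaling, no filter and a pseudocount of 0.1. Figures were drawn with matplotlib 3.10.9. The rescaled counts of the other gene lists, and class medians relative to all genes, were chosen after seeing the data. Some single items are not reported here, though genes among them count in the totals of their class or list.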

Additional observations from a re-analysis of the deposited data

Results flagged for a closer look

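The changes below are those of members whose level at a time after ligation differed from that at the time before by a direct test (limma, adjusted p under 0.05), so that their change against control differed between the times. From 6 h to 24 h the log2 fold change was 0.74 for Rars, 0.61 for Hars, 0.6 for Ears2, 0.47 for Rars2 and -0.52 for Fars2. From 24 h to 72 h it was -0.7 for Ears2, -0.51 for Mars2, -0.51 for Nars2, -0.49 for Iars2, -0.47 for Iars, -0.42 for Yars, -0.41 for Wars, -0.34 for Yars2, -0.33 for Tars2 and -0.31 for Kars. Of these, only Ears2 and Mars2 between 24 h and 72 h kept their call with each mouse left out.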

How the results depend on the processing

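At 72 h the 12 mitochondrial genes called lower were 11 to 17 under each alternative that kept all mice, and 12 to 13 with 1 mouse left out. The 12 cytosolic genes called higher at 24 h were 10 to 14 and 4 to 12. Where a value changed, the cause was not tested. Median-of-ratios scaling and quantile normalization lowered cytosolic values at 24 h and 72 h. Their cytosolic medians were -0.036 and -0.043 at 10 min, 0.083 and 0.033 at 72 h, 0.143 and 0.19 for 24 h against 6 h, and -0.289 and -0.284 for 72 h against 24 h, and quantile normalization gave 0.372 at 24 h. The mitochondrial medians were -0.32 and -0.402 at 24 h, -0.741 and -0.879 at 72 h, -0.17 and -0.183 for 24 h against 6 h, where the sign turned, and -0.433 and -0.543 for 72 h against 24 h. Median-of-ratios scaling gave medians of 0.226 for the cytosolic genes at 6 h and 0.012 for the mitochondrial genes at 10 min, and a pseudocount of 0.1 gave -0.501 for the mitochondrial genes at 72 h. Qars at 72 h reversed to -0.04 and -0.195, and Yars to -0.005 and -0.136, so that 4 and 5 cytosolic genes were lower at 72 h and, with quantile normalization, 6 higher. The same scalings called 7 and 2 cytosolic genes higher and, with the former, 1 mitochondrial gene lower at 6 h, 0 mitochondrial genes higher and 8 and 9 lower at 24 h, 1 cytosolic and 0 mitochondrial higher from 6 h to 24 h, and 7 cytosolic lower from 24 h to 72 h, with 13 mitochondrial lower under quantile normalization. Over all genes the calls at 72 h, 7081 higher and 3226 lower as deposited, became 5208 and 4792, and 4278 and 5794, and at 24 h they went from 3496 and 1516 to 2460 and 2426, and 2118 and 2736. Without the filter the mitochondrial calls were 0 higher and 2 lower at 24 h, and 1 higher and 0 lower from 6 h to 24 h. With all 18 mice in one fit, 7 mitochondrial genes were lower at 6 h, 2 cytosolic lower at 72 h, 15 cytosolic higher and 2 mitochondrial lower from 6 h to 24 h, and 10 mitochondrial lower from 24 h to 72 h.

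Leaving out single mice gave these ranges. Cytosolic genes higher were 0 to 2 at 6 h, 4 to 12 at 24 h, 0 to 2 from 6 h to 24 h and 0 to 1 from 24 h to 72 h, and cytosolic genes lower were 0 to 1 at 6 h, 1 to 2 at 72 h and 0 to 4 from 24 h to 72 h. Mitochondrial genes lower were 0 to 8 at 6 h, 1 to 6 at 24 h, 0 to 2 from 6 h to 24 h and 2 to 11 from 24 h to 72 h, and those higher were 0 to 1 at 24 h and from 6 h to 24 h. Cytosolic medians were -0.033 to 0.003 at 10 min, -0.048 to -0.004 at 1 h and -0.196 to -0.006 from 24 h to 72 h. Mitochondrial medians were -0.061 to 0.001 at 1 h, -0.317 to -0.149 at 6 h and -0.475 to -0.439 at 72 h. Of 366 fits of called member values with 1 mouse left out, 257 kept the call, 109 lost it and 0 reversed.

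Replicate numbers were not taken to pair the mice, since the correlations of same-numbered deviations ran from -0.327 to 0.415 and in no comparison were all above 0.1. With the replicate block, 0 cytosolic genes were higher and 1 mitochondrial gene lower at 6 h, 0 mitochondrial higher and 3 lower at 24 h, 0 cytosolic higher, 0 mitochondrial higher and 0 lower from 6 h to 24 h, and 2 cytosolic lower from 24 h to 72 h. At 24 h 10 cytosolic and at 72 h 12 mitochondrial genes were called in the block fit. The table holds no counts, so no counting error could be given, and low genes such as Pars2 and Ears2 are the least precise.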
